A study of Caenorhabditis elegans with 4 samples.

Results

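LIN-39 is the Hox protein of the mid-body of Caenorhabditis elegans, a homeodomain transcription factor that binds DNA and sets cell identity along the body axis. In larvae it is known for keeping vulval precursor cells competent, for patterning ventral cord neurons and for guiding migrating neuroblasts. Its binding was mapped in hermaphrodites of the L3 larval stage by chromatin immunoprecipitation and sequencing, and the 412 regions described here are those that stood alone: the midpoint of the closest other listed region on the same chromosome was more than 20 kb away. They were chosen by the spacing of regions in the authors' deposited list, and they make up 412 of its 7493 regions, or 5.50% (exact 95% binomial interval 4.99 to 6.04). The values that chose them are the called positions themselves, so the distances below are descriptions and carry no test.

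There were 2 ChIP libraries and 2 input libraries, all from strain OP18 grown at 20 °C and fixed with 2% formaldehyde. In both kinds every animal carries the mutation unc-119(ed3) on III and the transgene wgIs18, put in by bombardment, in which lin-39 is fused to TY1, EGFP and 3xFLAG and stands beside a functional copy, unc-119(+). ChIP used a goat polyclonal antibody raised against EGFP, and input is chromatin DNA without precipitation. Whole animals were used, so binding in a few cells and weak binding in many cannot be told apart, and binding by the tagged transgene protein is what was read. The list joins both replicates, so no value below has a spread between replicates. It holds 29.4% of the 25497 regions inferred to have been tested, all isolated regions are on it by construction, and nothing is read from that share. The intervals given reflect counting error alone, with each region taken as independent of its neighbours.

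On the nematode's autosomes the central part of each chromosome is known to hold more of the conserved and broadly used genes, whereas the arms recombine more and carry more repeats and more members of fast-changing gene families. The X chromosome shows this division less. Isolation was therefore described by chromosome and by arm and centre, with arms taken as the outer 30% at each end of a span that runs from 1 to the last region end. The closest midpoint lay at a median of 27.8 kb from an isolated region, with quartiles of 23.1 and 36.9 kb and a maximum of 154 kb. For the other 7081 regions the median was 2.43 kb. On the farther side the median gap of isolated regions was 52.4 kb, and it passed 100 kb for 59 of them. Of the isolated regions, 170 had no neighbour within 30 kb, 83 none within 40 kb, 48 none within 50 kb and 6 none within 100 kb.

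**Figure D1:**
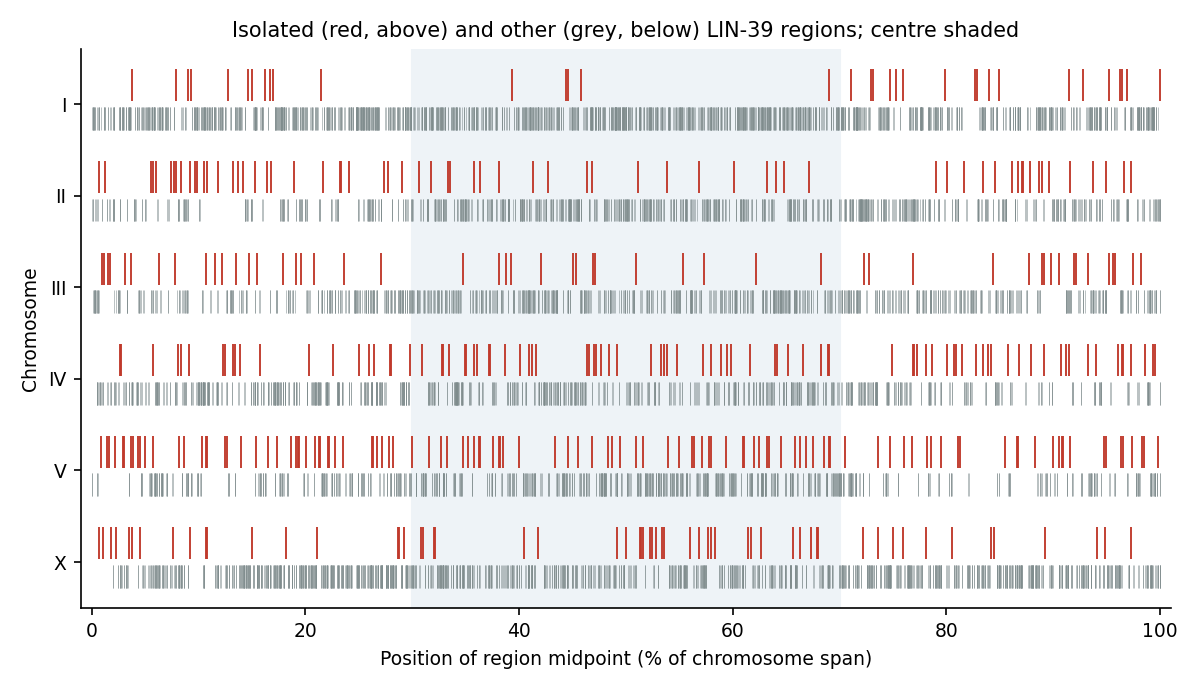
Position of every listed region along its chromosome, as percent of the chromosome's span, with isolated regions in red above each line and all other regions in grey below it; the shaded band is the centre. Isolated regions are spread over the whole of V, sit mostly outside the centre of I, and crowd the left arm of II, where 29 lay.

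Isolated regions were most frequent on chromosome V. It held 113 of the 412, or 27.4% (23.2 to 32.0), against 12.8% of the other regions. Chromosome IV followed with 90 (21.8%, against 13.6% of the others), then II with 66 (16.02% against 14.0%), X with 58 (14.1% against 20.5%) and III with 51 (12.4% against 14.4%). Chromosome I held only 34, or 8.25% (5.78 to 11.3), against 24.7% of the others. Counted within each chromosome, 11.1% of the regions on V were isolated (9.22 to 13.2), 8.53% on IV, 6.24% on II, 4.78% on III, 3.84% on X and 1.91% on I (1.32 to 2.65). This is the reverse of the order of region density, which was 48.8 per Mb on V, 60.4 on IV, 69.2 on II, 77.6 on III, 85.4 on X and 118.7 on I. Per Mb of span, isolated regions numbered 5.41 on V and 2.26 on I.

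Because fewer regions on a chromosome leave more of them alone, the counts were set beside the number expected if the same number of midpoints lay uniformly on each chromosome. Over all 6 chromosomes 412 isolated regions were observed and 419 expected, a ratio of 0.983 (exact Poisson interval 0.891 to 1.08). That near-equal total joined opposite deviations. On V 113 were observed and 144.8 expected, a ratio of 0.780 (0.643 to 0.938), whereas on I 34 were observed and 15.6 expected, a ratio of 2.19 (1.51 to 3.05). The ratios on II, III, IV and X were 0.994, 1.06, 0.953 and 1.17, and each of their intervals included 1. With midpoints placed uniformly within windows of about 1 Mb, so that local density was kept, the expected number was 136.6 on V (ratio 0.827, 0.682 to 0.994) and 18.8 on I (ratio 1.81, 1.26 to 2.53).

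**Figure D2:**
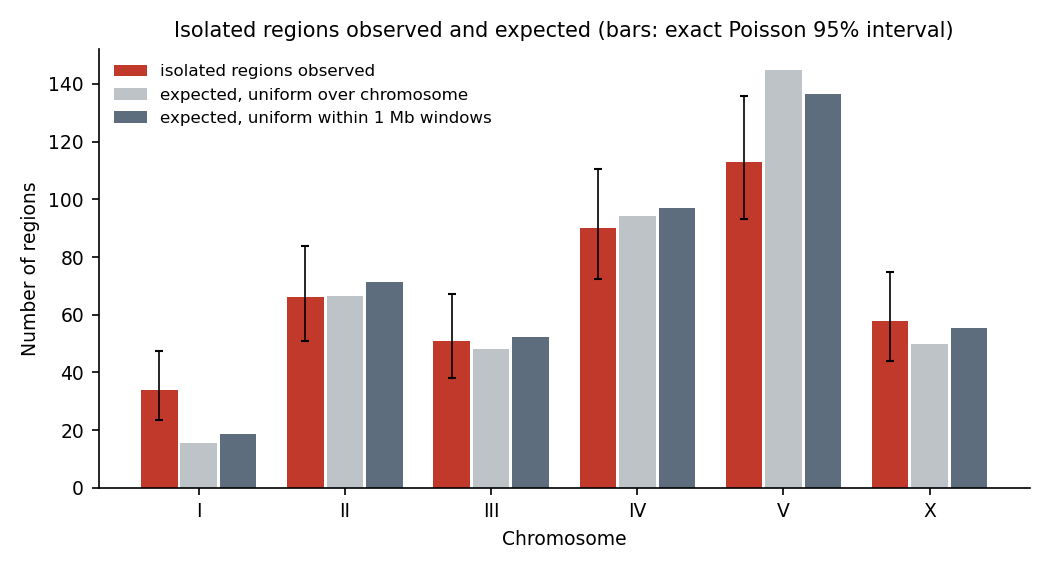
Number of isolated regions observed on each chromosome (red) and expected for uniform placing over the whole chromosome (light grey) and within windows of about 1 Mb (dark grey); error bars are exact Poisson 95% intervals of the observed count. On V the 113 observed regions lie below both expectations, and on I the 34 observed lie above both.

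The count on chromosome I moved with the scaling of the input. Input numbers on I were inferred to have been multiplied by 1.39, against 1.81 to 1.98 on the other chromosomes. With the mean factor of the others, 1.897, chromosome I kept 1127 regions instead of 1784, and 61 of these were isolated, against 56.3 expected (ratio 1.08, 0.829 to 1.39). The share isolated on I was then 5.41%. Of the 34 isolated regions by the deposited scaling, 22 stayed on the list with the mean factor and 12 dropped off it. The other 39 of the 61 had become isolated as neighbours fell off the list.

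Arms held more of the isolated regions than of the others. Of the 412, 260 lay in arms, or 63.1% (58.2 to 67.8), against 54.3% of the other regions (53.1 to 55.4). In arms 6.34% of all regions were isolated and in centres 4.48%, a ratio of 1.41 (exact conditional interval 1.15 to 1.74). The ratio differed between chromosomes. It was 4.69 on I (1.80 to 15.5, from 29 isolated regions in arms and 5 in the centre), 2.46 on II (1.42 to 4.44), 2.34 on III (1.24 to 4.69) and 1.91 on V (1.29 to 2.84). With the input of I rescaled as above, 43 of its 61 isolated regions lay in arms, against 29 of 34 by the deposited scaling. The ratio on I alone was not computed for the rescaled list. On IV the ratio was 0.930 (0.601 to 1.45). The X chromosome went the other way, at 0.565 (0.326 to 0.980), with 29 isolated regions among 964 in its arms and 29 among 545 in its centre. Without X the ratio was 1.70 (1.36 to 2.14). On I, II, III, V and X the zone with fewer regions per Mb had the larger share isolated. X had 90.9 regions per Mb in its arms and 77.1 in its centre, whereas the autosomes had 63.4 in arms and 86.3 in centres. IV was the exception. Its arms were also sparser, at 57.7 regions per Mb against 64.4 in its centre, but its ratio of 0.930 had an interval that included 1. The part of density in the arm ratios was not tested. The difference between X and the autosomes was not tested, because regions are not replicates. The interval of X lies below that of the autosomes together and overlaps that of IV.

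Left and right arms were unlike on II and IV, whereas on the other chromosomes the intervals of both arms overlapped. On II, 15.1% of the regions of the left arm were isolated (10.4 to 21.0) and 5.33% of those of the right arm (3.19 to 8.29). On IV it was the right arm that held more, 13.4% (9.22 to 18.6), against 5.25% in the left (3.24 to 7.99) and 8.89% in the centre. Both arms of V were high, at 16.1% on the left and 13.8% on the right, with 7.91% in the centre. These zones were thinly filled: the left arm of II had 41.9 regions per Mb, the right arm of IV 42.7, and the arms of V 40.7 and 31.3. In the centre of I, at 132.7 regions per Mb, 0.627% of regions were isolated (0.204 to 1.46).

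**Figure D3:**
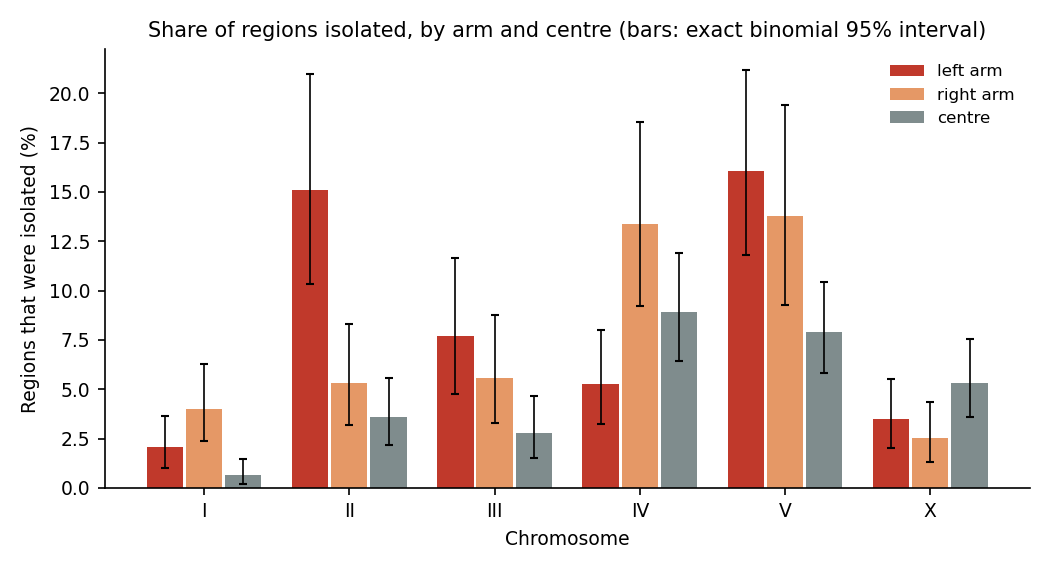
Percent of the listed regions that were isolated in the left arm, right arm and centre of each chromosome; error bars are exact binomial 95% intervals. The left arm of II (15.1%), the right arm of IV (13.4%) and both arms of V stand high, and on X the centre (5.32%) is above both arms.

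In 97 complete windows of 1 Mb the share isolated also fell as the number of regions rose. The rule makes such a fall likely, because more regions in a window leave fewer apart. No expected share was computed for these classes. In the 13 windows with fewer than 40 regions 21.2% of regions were isolated, in the 18 windows with 40 to 59 regions 12.0%, in the 24 with 60 to 79 regions 6.49%, in the 32 with 80 to 119 regions 2.85% and in the 10 with 120 or more 1.19%. A window held a median of 4 isolated regions, and 7 windows held none, of which 4 were on I, 2 on X and 1 on II. The window with the most, on V from 4000001 to 5000000, held 11 isolated regions among 50. The first window of V (from 1 to 1000000) held 10 among 23, and that on II from 1000001 to 2000000 held 10 among 32.

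Over all chromosomes together, isolation over 20 kb was about as frequent as uniform placing on each whole chromosome gives. Isolation over longer distances was more frequent than that. The expectation within windows of about 1 Mb was computed at 20 kb alone, so the part of local density at longer distances was not tested. No neighbour within 10 kb was found for 1211 regions against 1632 expected, a ratio of 0.742. At 20 kb the ratio was 0.983, at 30 kb 1.41 (170 observed, 120.3 expected), at 40 kb 2.22 (83 and 37.3) and at 50 kb 3.92 (48 and 12.2). At 25 kb V was still below its expectation (79 and 88.9, ratio 0.889), and the other chromosomes were at 1.04 to 4.19. Of the 48 regions isolated by more than 50 kb, 39 lay in arms and 9 in centres. There were 18 on V, 11 each on II and IV, 4 each on III and X and 0 on I. On II, 10 of the 11 were in the left arm, and on IV 8 of the 11 were in the right arm.

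**Figure D4:**
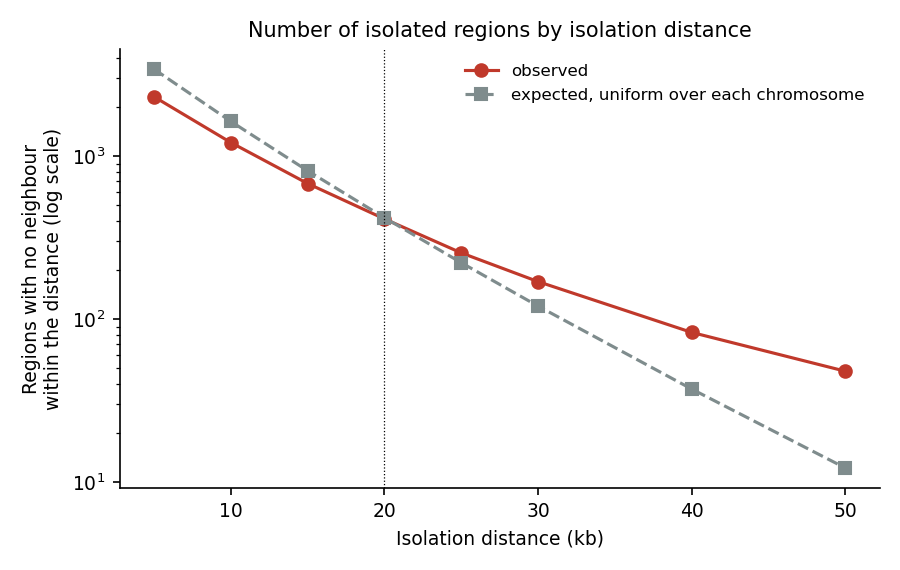
Number of regions with no other midpoint within a given distance (log scale) against that distance in kb, observed (red) and expected for uniform placing on each chromosome (grey); the dotted line marks 20 kb. The lines cross near 20 kb, where 412 were observed and 419 expected, and at 50 kb 48 were observed against 12.2 expected.

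Isolated regions were slightly narrower than the rest. Their median width was 332.5 bp (exact interval of the median 312 to 354), with quartiles of 207.5 and 495 bp, against 367 bp (361 to 372) and quartiles of 251 and 567 bp in the other regions. The ratio of medians was 0.906. Other regions with a nearest midpoint at 10 to 20 kb had a median of 339 bp (322 to 354), close to that of isolated regions. The median was lower in isolated regions on each of the 6 chromosomes, from 318 bp against 399 bp on V to 367.5 bp against 388 bp on X, and the intervals of the medians did not overlap on V. Weighted to the chromosome mix of the isolated regions, the other regions had a median of 377 bp. Regions under 200 bp made up 22.6% of the isolated (18.6 to 26.9), against 15.3% of the others (14.5 to 16.2). Regions of at least 1000 bp made up 5.10% (3.18 to 7.69), against 7.41% (6.81 to 8.05). In arms the medians were 329 and 369 bp, with intervals apart. In centres they were 351 and 364 bp, and without V 338 and 362 bp, with overlapping intervals. With fewer than 50 ChIP reads they were 176.5 and 182 bp, and with 50 to 99 reads 332 and 341 bp. With 100 to 199 reads they were 494 and 522 bp, and with at least 200 reads 739.5 and 967.5 bp. In each of these read classes the intervals overlapped.

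Isolated regions also came later in the list, which runs in order of p, so they were less often among those with the strongest statistical support. The first of them stood at place 73. Of the first 100 regions 2 were isolated, of the first 500 18 (3.60%, 2.15 to 5.63), of the better-scoring 50% of the list 4.70% (4.04 to 5.42) and of the remainder 6.30% (5.54 to 7.13). With the list cut into 10 equal parts, the share lay between 4% and 5.07% in parts 1 to 4 and between 5.34% and 7.08% in parts 5 to 10. The median place was 4324.5 for isolated regions and 3715 for the others. X and I went the other way, with overlapping intervals: the median place on X was 3448.5 for isolated and 3713 for other regions, and on I 3203 and 3511. Of the isolated regions of X 55.2% were in the better-scoring 50%, against 50.5% of its other regions, and on I the shares were 52.9% and 52.7%. On V they were 38.1% and 46.1%, and on IV 37.8% and 50.1%. Late places were not particular to isolated regions. Of the regions with a nearest midpoint at 10 to 20 kb, 41.7% were in the better-scoring 50%, against 42.7% of isolated ones. The median place of those at 10 to 20 kb was 4330 (4064 to 4543).

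Reads in each region were inferred from the q-values, as the number of ChIP reads and the number of input reads after the authors' scaling, and a single pair was found for all 412 isolated regions. Another form of the test behind p fits the q-values equally. It would move a single read from ChIP to scaled input in each region. Isolated regions held 40595 ChIP reads and 17364 of scaled input, 4.66% of the ChIP reads in listed regions on 4.72% of the covered length. The median isolated region had 74 ChIP reads (68 to 80), against 82 (80 to 84) in the others, and 34.95% of isolated regions (30.3 to 39.8) had fewer than 50, against 25.8% (24.7 to 26.8). At the other end, 40 isolated regions (9.71%, 7.03 to 13.0) had at least 200 ChIP reads, against 13.2% of the others (12.4 to 14.0).

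The ratio of ChIP to scaled input was close in both groups. Its median was 2.71 in isolated regions (2.57 to 2.80), with quartiles of 2.06 and 3.60, against 2.59 (2.57 to 2.63) and quartiles of 2.09 and 3.40 in the others. Weighted to the chromosome mix of the isolated regions, the others had a median of 2.52. Ratios of at least 5 were found in 11.4% of isolated regions (8.50 to 14.9), against 7.23% of the others (6.63 to 7.86). A listed region with few reads must have a high ratio to pass, so the groups were also compared within classes of ChIP reads. With 50 to 99 ChIP reads the medians were 2.35 in isolated and 2.42 in other regions, with 100 to 199 reads 2.13 and 2.30, and with at least 200 reads 2.53 and 2.30. In these 3 classes the intervals of both medians overlapped. Below 50 reads the medians were 3.67 (3.25 to 4.10) and 3.30 (3.25 to 3.40), and their intervals overlapped as well. Isolated regions of that class had a median of 29 ChIP reads (26 to 33), against 33 (32 to 34) in the others. Without V its median ratios were 3.33 (3.12 to 3.83) and 3.30 (3.25 to 3.42).

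The difference in this ratio was widest on chromosome V. Its 113 isolated regions had a median of 3.00 (2.71 to 3.42), against 2.44 (2.40 to 2.52) in its other 907 regions, and the intervals did not overlap. On the remaining chromosomes together the medians were 2.63 and 2.62. In the arms of V the isolated median was 3.21 (2.93 to 3.62) against 2.43 (2.33 to 2.52) in the other regions, and in its centre 2.71 (2.24 to 3.10) against 2.48 (2.40 to 2.59). Reads moved with this: 41.6% of the isolated regions of V had fewer than 50 ChIP reads (32.4 to 51.2), against 26.4% of its other regions (23.5 to 29.3). Within V the medians were 4.17 (3.62 to 4.88) against 3.25 (3.06 to 3.50) below 50 reads, 2.33 against 2.32 with 50 to 99 reads, and 2.33 against 2.17 with 100 or more. The class below 50 reads was not matched in depth on V: its isolated regions had a median of 24 ChIP reads (18 to 29) and 143 bp (68 to 179), against 32 reads (30 to 34) and 199 bp (183 to 200) in its other regions. The part of read depth in the difference on V was not tested.

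Input, taken before scaling per kb and relative to the median listed region of the same chromosome, was 0.963 in isolated regions (0.862 to 1.06) and 1.00 in the others (0.984 to 1.02). It was at least 1.5 in 26.0% of isolated regions (21.8 to 30.5) and in 23.8% of the others (22.8 to 24.8). On X the isolated median was 1.24 (0.841 to 1.52) and on V 0.804 (0.607 to 1.05).

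Widths, places in the list and ratios did not change evenly with distance. The 923 regions with a midpoint within 1 kb were also narrow, with a median width of 325 bp (307 to 340), a median ratio of 2.76 (2.65 to 2.85) and 45.9% in the better-scoring 50%, so low widths were found at both ends of the range of distances. From a nearest midpoint at 1 to 2 kb to one at 10 to 20 kb, the median width went down class by class, 407, 368, 344.5 and 339 bp, and the share in the better-scoring 50% likewise, 56.5, 51.8, 46.4 and 41.7%. At 20 to 30 kb, the nearer class of isolated regions, the median width was 352 bp (316 to 369) and the share 47.5%, both above those at 10 to 20 kb, with overlapping intervals. At 30 to 50 kb they were 329.5 bp and 39.3%. The 48 regions beyond 50 kb had a median width of 268.5 bp (188 to 339), a median of 46.5 ChIP reads (28 to 70), and 27.1% of them lay in the better-scoring 50%. Their median ratio was 3.09 (2.35 to 3.75).

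**Figure D5:**
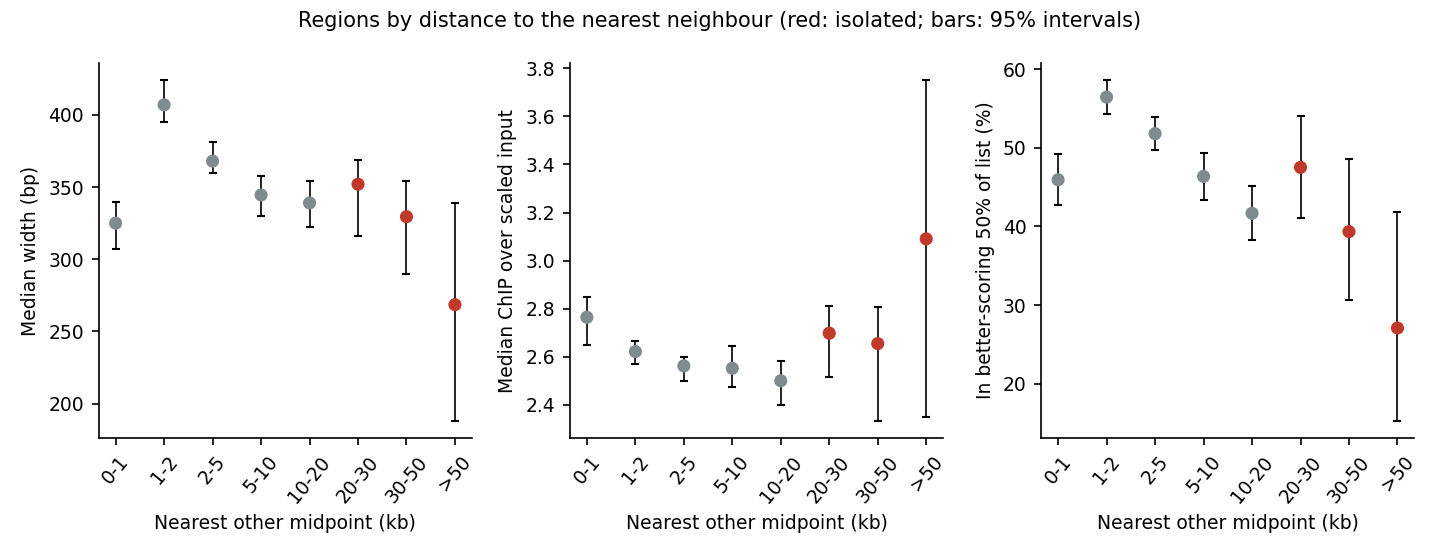
Median width in bp, median ratio of ChIP to scaled input, and percent of regions in the better-scoring 50% of the list, by distance to the nearest other midpoint in kb; red points are isolated regions, grey points all other regions, error bars 95% intervals (exact for medians and shares). The class beyond 50 kb has the narrowest median (268.5 bp) and the lowest share in the better-scoring 50% (27.1%), with wide intervals from its 48 regions.

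Among isolated regions, the smallest q-value in the authors' deposited list belonged to a 681 bp region on chromosome I from 14469184 to 14469864 (WS180), at q = 1.21e-38. Its 268 ChIP reads stood against 43 of scaled input (ratio 6.23), and its neighbours' midpoints lay 44.7 kb to the left and 27.1 kb to the right. Rescaling the input of I as above brought its ratio to 4.54. The next, on IV from 1419961 to 1420520 (q = 1.67e-38), held 365 ChIP reads against 89, a ratio of 4.10, between gaps of 30.99 and 35.04 kb. A 751 bp region on IV from 14464060 to 14464810 (q = 7.17e-31) stood farther apart than any of the 10 with the smallest q, with gaps of 73.9 and 112.2 kb, and held 309 ChIP reads against 80. These 3 regions are all in arms, and their input per kb before scaling was 1.08, 2.22 and 1.59 times that of the median listed region of their chromosome.

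The other 7 of the 10 with the smallest q lay on X, V, I, IV and II. The leading isolated region of X, from 11603484 to 11607428, was also the widest of all isolated regions at 3945 bp, with 784 ChIP reads against 389 and a ratio of 2.02 (q = 2.74e-29). A second on X, from 10187964 to 10189031, had 474 reads against 203. Both are in the centre of X. On V the regions from 6267392 to 6267845 (241 reads against 52, ratio 4.63, q = 2.28e-28) and from 10174442 to 10175194 (302 against 84, ratio 3.60) are in the centre, with a gap of 73.7 kb to the right of the first and 64.0 kb to the right of the second. The first stands at 30.01% of the span, just past the arm limit of 30%. On I the region from 15034008 to 15034198 (168 against 27, ratio 6.22, q = 2.20e-24) is the last listed on its chromosome, so it has a neighbour on the left side only, at 34.4 kb. The others are on IV from 1011872 to 1013538 (367 against 135, ratio 2.72) and on II from 5543306 to 5544452 (458 against 193, ratio 2.37, the best-placed isolated region of II).

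On chromosome III the best-placed isolated region, from 12367283 to 12369736, combined width, support and distance. It was 2454 bp wide, held 543 ChIP reads against 269 (ratio 2.02, q = 1.31e-20), and had gaps of 89.7 kb to the left and 101.7 kb to the right. It was among both the 5 widest isolated regions and the 10 most distant ones. The other wide ones had lower ratios: on V from 16592071 to 16595646 (3576 bp) 430 ChIP reads stood against 350, a ratio of 1.23 at q = 0.00815, on II from 13289807 to 13292020 (2214 bp) the ratio was 1.53, and on V from 1804080 to 1806176 (2097 bp) it was 1.80.

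The most distant regions were mostly small. The region farthest from any neighbour, on II from 1808263 to 1808549, had gaps of 154 kb and 212 kb and held 45 ChIP reads against 12 (ratio 3.75, q = 4.72e-05). A second on II, from 3682644 to 3683144, had gaps of 115 and 125 kb and held 124 reads against 67, a ratio of 1.85. On V the regions from 15873775 to 15874113 and from 16031611 to 16031771 are neighbours of each other across 157.7 kb. They held 128 reads against 41 and 23 against 6. Also on V, the region from 455222 to 455409 held 28 reads against 8, and that from 2918609 to 2918614, only 6 bp wide, held 16 against 2, with 269 kb to its right neighbour. On IV the regions from 5394333 to 5395061 (134 reads against 69), from 15170362 to 15170444 (15 against 2) and from 15362105 to 15362357 (28 against 10) had nearest midpoints 98.6, 89.3 and 87.7 kb away. Of these 10 most distant regions, counting that on III, 5 held fewer than 30 ChIP reads, and 2 held only 2 scaled input reads, where 1 read more or less would change the ratio greatly.

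Among isolated regions with at least 100 ChIP reads, the highest ratios were on I and III. The first 2 were the regions on I given above, at 6.23 and 6.22. They were followed by I from 1392873 to 1393160 (128 reads against 21, ratio 6.10), III from 6247979 to 6248374 (119 against 21, ratio 5.67) and V from 5888805 to 5889183 (118 against 23, ratio 5.13). With the input of I rescaled, its regions had ratios of 4.54, 4.54 and 4.41, below those on III and V. The ratio on III belongs to a region in the centre, with gaps of 41.9 and 48.3 kb.

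Very narrow regions carried the fewest reads. Of the isolated regions 23 were under 50 bp, 5.58% (3.57 to 8.26), against 3.95% of the others (3.51 to 4.43). Of these 23, 14 lay on V, 5 on IV, 3 on III, 1 on X and 0 on I and II. They held between 14 and 25 ChIP reads against 1 to 4 scaled input reads, and their ratios, from 4.5 to 15, rest on those few reads. Where scaled input was 1, the inferred factor gave 0 input reads before scaling. Under the other form of the test behind p, a single read moves from ChIP to scaled input, which would lower these ratios greatly. None stood before place 4367 in the list. The set was singled out after its values were seen.

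Part of the isolated regions followed one another. A neighbour of an isolated region already has a gap over 20 kb on one side, so runs follow in part from the rule, and no expected number was computed for them. In the order of midpoints along a chromosome, 208 isolated regions stood singly between other regions, and the remaining 204, or 49.5%, stood in 83 runs of 2 or more with no other region between them. There were 57 runs of 2, 19 of 3, 4 of 4, 1 of 5 and 2 of 6. Both runs of 6 were in left arms, on II from 1603034 to 2166221 (563 kb) and on V from 185756 to 643357 (458 kb). The run on II holds the most distant region, and its 6 members held 15 to 45 ChIP reads. The run of 5 was on V from 2155803 to 2639927, across a gap of 346 kb between 2 of its members. The region on its far side, from 2600588 to 2600941, held 128 reads against 37. A run of 4 on III, from 12250113 to 12470354, holds the wide region of III described above, and its first member, from 12250113 to 12250804, held 294 reads against 107. These runs were chosen for description after their lengths were seen.

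Gaps between neighbouring midpoints exceeded 20 kb 1473 times in the list. In 121 of these both flanking regions were isolated, in 580 one was, and in 772 neither was, because each had a closer neighbour on its other side. The last kind was the most frequent on I, II, III and X (137 of 197, 116 of 228, 123 of 213 and 165 of 264 gaps). On V, 38 of 298 gaps had isolated regions on both sides and 150 on one side.

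The limit of 20 kb cuts through a continuous range of distances. The 3 regions just inside it, on IV from 10461760 to 10462088, on V from 14432392 to 14432566 and on II from 12062366 to 12062514, had nearest midpoints at 20.0, 20.1 and 20.1 kb and held 66, 31 and 24 ChIP reads against 17, 10 and 7. The 3 just outside it, on III from 2576626 to 2577598, on X from 6320852 to 6321152 and on IV from 13147712 to 13147921, had nearest midpoints at 19.97, 19.96 and 19.9 kb and held 237, 65 and 39 reads against 104, 30 and 17. Between 20 and 22 kb there were 79 regions with a median width of 348 bp, and between 18 and 20 kb 96 regions with a median of 319 bp.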

How the data were processed

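ChIP and input libraries, 2 of each, were grouped from their descriptions. The only values are q-values, 1 per region, in a list that the authors deposited and that joins both replicates; PeakSeq and genome build WormBase WS180 are named per the file headers and columns. Aligner, versions, filters and the joining of replicates are not given in the sources used here; the largest q in the list is 0.00999. Coordinates are 1-based on WS180. Library totals were not used, so depth is the reads per region.

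A region was isolated when no other midpoint on its chromosome lay within 20000 bp. The expected number was computed in closed form for uniform midpoints. Read numbers were inferred: q multiplied by place in the list and divided by the number of tests is p, and 25497 tests made all 60 of the most common p-values binomial tails with probability 0.5, against 1 for the next best number. Each p then gave whole ChIP and scaled input reads (relative tolerance 3e-11), as a single pair for 7483 regions. The 10 regions with 2 pairs were left out of read values. These pairs hold for a tail that includes the observed input number. A tail with a strict inequality fits equally and would move 1 read from ChIP to scaled input in each region. The ratio of median ChIP over input of isolated to other regions was then 1.03 instead of 1.04. The factor applied to input on each chromosome was inferred from the values that scaled input skips. Multiples of these factors, rounded up, covered 95.6 to 98.5% of the scaled input values, against 50.4 to 72.2% by spacing alone. Relative input used width plus 200 bp. Intervals are exact, at 95%: Clopper-Pearson, Poisson, or order statistics for medians. Scripts (Python 3.11.15, scipy 1.17.1) were tested on simulated data.

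The members, lists and alternatives were chosen with earlier results of these data known. Regions were named by rule: the 10 with the smallest q, the first on each chromosome, the 10 most distant, the 5 widest, the 5 with the highest ratio among those with at least 100 ChIP reads, and 3 on either side of the limit. No gene was assigned and no sequence read, since the gene table at hand is for another assembly, WBcel235.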

Additional observations from a re-analysis of the deposited data

How the results depend on the processing

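No paired analysis was possible because both replicates enter 1 joined list, and no replicate could be left out of it. The alternatives at 50000 bp, for X alone and for V alone were chosen after seeing the data. The 412 isolated regions became 679, 255 and 48 at 15000, 25000 and 50000 bp, by construction, and 621 when isolation was found within the better-scoring 50%, which has fewer regions by construction; the edge-to-edge, joined and rescaled lists gave 388 to 494. The ratio of observed to expected, 0.983, was 0.835, 1.15 and 3.92 at 15000, 25000 and 50000 bp, 0.769 within the better-scoring 50%, 0.828 with regions within 2000 bp joined and 1.09 without V; in the other 6 alternatives it lay from 0.926 to 0.965. The excess of isolation in arms kept its direction in 12 of 13 alternatives, at 1.19 to 1.70, and reversed to 0.565 on X alone. Isolated regions were narrower in all 9 alternatives, with a ratio of medians of 0.841 with regions joined and 0.858 to 0.934 in the other 8. The ratio of median ChIP over input, 1.04, was 0.986 within the better-scoring 50%, 0.988 with at least 50 ChIP reads and 1.23 on V alone, so its sign depends on these choices; the other 9 gave 1.004 to 1.07. The share isolated in the better-scoring 50%, 4.70%, was 7.63% and 2.72% at 15000 and 25000 bp by construction, and 5.70% with rescaled input on I, where the list also shrank to 6732 regions. The share on V, 27.4%, was 21.1% within the better-scoring 50%; the cause was not tested. Depth limits the ratios of the 23 regions under 50 bp, with 1 to 4 scaled input reads.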
